A study of Setaria viridis with 32 samples.

Results

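The comparison described here asks whether the change in transcript levels of *Setaria viridis* seed heads between 50% emergence and anthesis differed between the ecotypes ME034V and A.10. For each locus the change in ME034V (anthesis over 50% seed head emergence, 50% SH) had the change in A.10 subtracted from it on the log2 scale, so that a positive difference means a greater rise, or a smaller fall, in ME034V. Of the 38334 loci in the count files, 23554 had more than 1 CPM (a locus's share of the library's counts, scaled by the TMM method) in at least 3 of the 16 libraries used, and the difference was tested in all of these.

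*Setaria viridis* (green foxtail) is a small grass used as a model for maize and sorghum. A.10 is the widely studied ecotype and ME034V the one used for transformation. The study grew both in the same growth chamber conditions, took whole seed heads and made poly(A) libraries. Used here were 4 libraries each of ME034V at anthesis, ME034V at 50% SH, A.10 at anthesis and A.10 at 50% SH, 16 of the 32 libraries of the series. All plants were unmodified and untreated, and each library came from a pool of 4 plants. As the sample is a whole head, fewer cells of a type and less RNA per cell cannot be told apart.

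At 50% SH the head is only in part out of the leaf sheath and the florets are closed. At anthesis the florets open, pollen is released and the ovary becomes ready for fertilization, after which the head becomes a strong sink for sucrose. SWEETs are membrane proteins that let sugars move down their gradient, SUTs are proton-coupled sucrose carriers, invertases and sucrose synthases split sucrose, and the pyrophosphorylases, starch synthases and branching enzymes lead to starch.

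Library totals ran from 4557079 to 21175874 counts, with a median of 7906957. ME034V anthesis replicate 4 was the deepest, and the other 15 libraries had at most 12386386 counts. On the third principal component, which held 4% of the variance, ME034V anthesis replicate 4 and ME034V 50% SH replicate 1 lay at 55 and 33.8, against -27.2 to 18.3 for the other 14. Within A.10 50% SH, replicates 1 and 2 lay at 18.3 and 17.6 and replicates 3 and 4 at -8.05 and -9.36. Replicates 1 and 2 of this group were also deeper, with 12386386 and 10710201 counts against 4557079 and 5488801. The first and second components held 45.4% and 34.7% and separated the 4 groups. The 2 qPCR reference genes of the study did not pass the test of the difference. The gene of elongation factor 1-alpha (Sevir.3G271600) gave 0.04 on the log2 scale (95% interval -0.19 to 0.28), and that of a translation factor (Sevir.5G315700) gave 0.36 (95% interval -0.25 to 0.98).

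The changes of the ecotypes were alike over most loci. In ME034V 3553 loci rose and 2846 fell from 50% SH to anthesis, 15.1% and 12.1% of those tested, and in A.10 4181 rose and 3267 fell, 17.8% and 13.9% (edgeR quasi-likelihood test, Benjamini-Hochberg adjusted p under 0.05). Of the 4915 loci that passed in both ecotypes, 4905 moved in the same direction. Across the 23554 loci the ME034V and A.10 changes, which share no libraries, correlated with a Pearson r of 0.889 (Spearman's rho 0.741), given as a description since loci are not independent replicates.

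The difference itself passed the test at 64 loci, 0.272% of those tested. At 27 loci (0.115%) it was positive and at 37 (0.157%) negative. At an unadjusted p under 0.05 there were 1958 loci, 8.31% of those tested, 803 of them positive and 1155 negative. The median difference over all loci was -0.016 on the log2 scale with a median SE of 0.222, and the 95% interval of the difference lay within 1 log2 unit of 0 at 16153 loci (68.6%). At the other loci the interval reached beyond 1 log2 unit. The number of loci that passed was 180 with DESeq2, 98 with limma and 31 with all 32 libraries in 1 fit. It was 158 without ME034V 50% SH replicate 1, 36 without ME034V 50% SH replicate 3, 36 without A.10 50% SH replicate 1, 40 without A.10 50% SH replicate 4 and 38 without A.10 anthesis replicate 3. All 64 kept their sign in each of the 28 alternatives in which they were tested, and 23 of them, 12 positive and 11 negative, passed in each of the 16 fits that left out 1 library. With all 32 libraries in 1 fit 24 of the 64 passed, and 2 of the 64 passed in all 28 alternatives, which include a test against a log2 difference of 1.

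**Figure D1:**
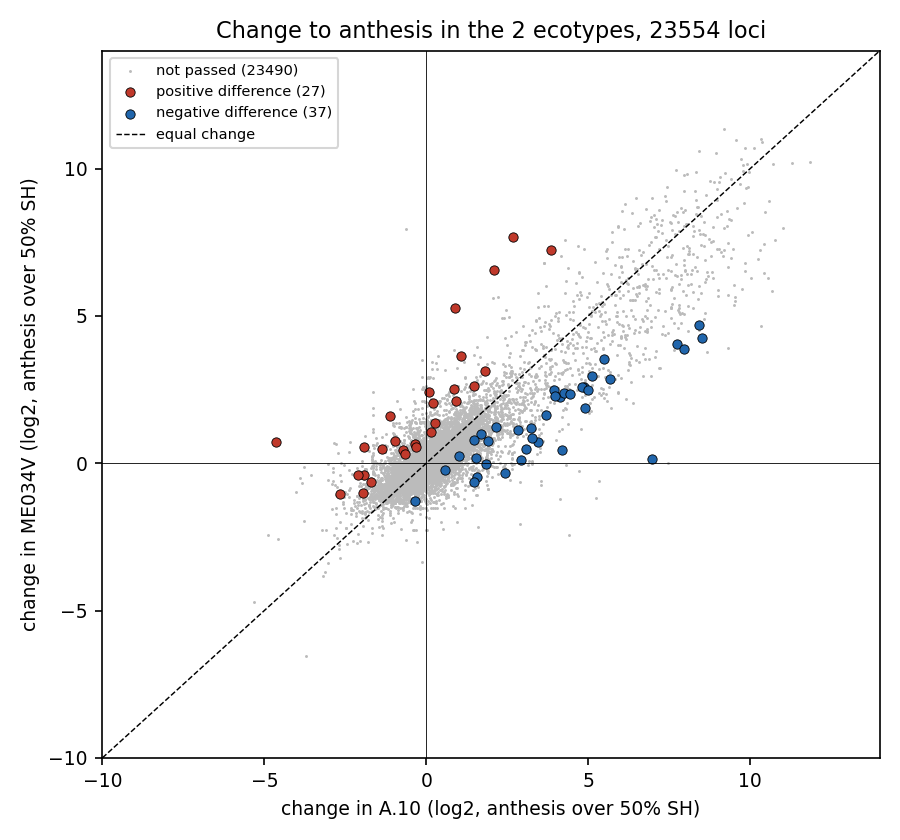
Change from 50% SH to anthesis in ME034V (vertical, log2) against the change in A.10 (horizontal, log2) for the 23554 loci tested, with the 27 loci of positive difference in red, the 37 of negative difference in blue and the line of equal change dashed. Most loci lie along the line (Pearson r = 0.889), and the blue loci lie mostly at rises in A.10.

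The loci that passed fell into a small number of patterns. Among the 37 with a negative difference, 25 rose in both ecotypes and rose less in ME034V, 11 rose in A.10 and did not pass in ME034V, and 1 fell in both and fell more in ME034V. Among the 27 with a positive difference, 8 rose in both ecotypes and more so in ME034V, 5 rose in ME034V and did not pass in A.10, 5 fell in A.10 and did not pass in ME034V, 4 fell in both and less so in ME034V, and 5 rose in ME034V and fell in A.10. No locus that fell in ME034V and rose in A.10 passed the test of the difference, although 3 loci moved in that way. The median difference was 1.67 over the 27 positive loci and -2.08 over the 37 negative ones. A group held 3 counts or fewer at 4 positive loci and 1 negative locus, which had the largest differences of their direction. With these groups set to 3 counts over the group, the loci stayed beyond the medians, so the medians could not move. The smallest differences that passed were 0.85 and -0.68.

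At the negative loci the gap between the ecotypes lay mostly at 50% SH. At anthesis the level was higher in ME034V at 17 of 37 loci and the median gap (ME034V over A.10) was -0.14 on the log2 scale, while at 50% SH ME034V was higher at 35 of 37 and the median gap was 1.97. The gap exceeded 1 log2 unit at 9 of the 37 at anthesis and at 33 of the 37 at 50% SH, against 9.99% and 12.1% of all loci tested. At anthesis the 4 ME034V libraries did not overlap with the 4 A.10 libraries at 15 of the 37 loci, against 20.9% of all loci tested, and at 50% SH at 36 of the 37, against 21%. The median over the 37 loci of the group mean was 27.7 CPM in ME034V at anthesis and 6.63 CPM at 50% SH, against 31.6 and 1.11 CPM in A.10, and 2 of the 37 had under 1 CPM in ME034V at 50% SH against 18 of 37 in A.10. These values come from the same libraries as the difference and describe where it lay. Reads of both ecotypes were mapped to the A.10 genome, and a loss of ME034V reads would enter any gap at a stage.

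The positive loci were less uniform. ME034V was the higher at 16 of 27 loci at anthesis and at 5 of 27 at 50% SH, with median gaps of 0.36 and -1.88. The gap was the larger at anthesis at 10 of the 27 and at 50% SH at 17. The medians of the group means were 18.3 CPM in ME034V at anthesis and 6.11 CPM at 50% SH, against 15 and 18.7 CPM in A.10.

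**Figure D2:**
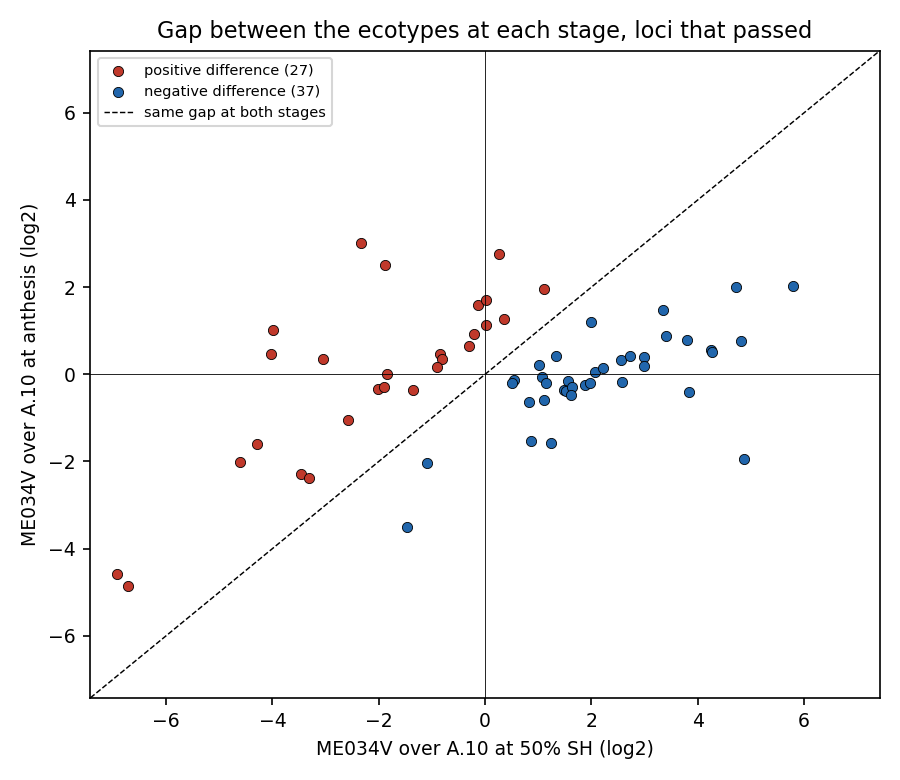
ME034V over A.10 at anthesis (vertical, log2) against the same ratio at 50% SH (horizontal, log2) for the 64 loci that passed, in red where the difference was positive and in blue where it was negative. The distance from the dashed line of equal gaps is the difference in the change, and 35 of the 37 blue loci lie right of 0, with higher levels in ME034V at 50% SH.

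The deposited files pair the loci outside the study's own gene list with no names or functions, so the most extreme of them are given by identifier, with positions in the *S. viridis* v2.1 annotation. They were picked among loci that passed with a mean of 10 CPM or more in a group, no overlap of stages in an ecotype and no overlap of ecotypes at a stage. The 2 most negative of these lie on chromosome 6. Sevir.6G096100 (24616984 to 24619906, plus strand) had 43.3, 70.6, 67.2 and 67.1 CPM in ME034V at anthesis and 4.01, 1.52, 5.54 and 1.72 CPM at 50% SH, against 57.3, 76.1, 106 and 87.3 CPM in A.10 at anthesis and 0.162, 0.466, 0 and 0 CPM at 50% SH. The ecotypes overlapped at anthesis and were separate at 50% SH, where the A.10 libraries held 2, 5, 0 and 0 counts. It rose by 4.27 (SE 0.29) in ME034V and by 8.51 (SE 0.45) in A.10, a difference of -4.24 (SE 0.71, edgeR adjusted p = 0.012). Without A.10 50% SH replicate 1 it was -4.06 and no longer passed (edgeR adjusted p = 0.06).

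Sevir.6G246400 (35331093 to 35335451, plus strand) had 56.1, 66.9, 53.9 and 49.1 CPM in ME034V at anthesis and 3.22, 2.93, 5.66 and 3.56 CPM at 50% SH. In A.10 it had 25, 36.5, 33.1 and 37.9 CPM at anthesis and 0.162, 0.186, 0 and 0 CPM at 50% SH. All ME034V libraries were above all A.10 libraries at both stages, by more at 50% SH. At 50% SH the A.10 libraries held 4 counts in all, so the sizes of the A.10 rise and of the difference rest on few counts. The rise was 3.88 (SE 0.19) in ME034V and 7.94 (SE 0.33) in A.10, a difference of -4.06 (SE 0.52, edgeR adjusted p = 0.0021). It was one of 2 loci whose difference also passed a test against a log2 difference of 1 (edgeR glmTreat, adjusted p = 0.036). The other, Sevir.9G555700, is named since it is 1 of these 2. It averaged 9.16 ± 0.88 CPM in ME034V at anthesis and 11.6 ± 3.77 CPM at 50% SH, against 10.3 ± 1.45 and 1.91 ± 0.14 CPM in A.10 (SD, n = 4 each), a difference of -2.76.

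Of the most positive loci under the same rule, Sevir.4G282400 (chromosome 4, 37933912 to 37935862, minus strand) had 14.6, 20.3, 23.7 and 15.7 CPM in ME034V at anthesis and 0.0871, 0, 0.236 and 0.123 CPM at 50% SH. The A.10 libraries had 18, 14.4, 11.6 and 14.8 CPM at anthesis and 1.22, 0.838, 1.13 and 0.741 CPM at 50% SH. The ecotypes overlapped at anthesis and were separate at 50% SH, where the ME034V libraries held 1, 0, 2 and 1 counts. Its rise was 7.25 (SE 0.34) in ME034V and 3.85 (SE 0.25) in A.10, a difference of 3.40 (SE 0.57, edgeR adjusted p = 0.012). Without A.10 50% SH replicate 1 it was 3.22 (edgeR adjusted p = 0.058), and in counts thinned to equal totals it was 2.63 (edgeR adjusted p = 0.11). With all 32 libraries in 1 fit it did not pass (edgeR adjusted p = 0.53).

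Sevir.5G428601 (chromosome 5, 43863714 to 43864638, minus strand) had 34.2, 27.4, 30.4 and 25.4 CPM in ME034V at anthesis and 2.35, 3.04, 2.71 and 0.982 CPM at 50% SH. Levels in A.10 were 105, 107, 136 and 121 CPM at anthesis and 87.4, 63.2, 37.3 and 33.4 CPM at 50% SH. All A.10 libraries were above all ME034V libraries at both stages, by more at 50% SH. It rose by 3.66 (SE 0.31) in ME034V and by 1.06 (SE 0.22) in A.10, a difference of 2.60 (SE 0.39, edgeR adjusted p = 0.0077). The higher A.10 50% SH libraries, replicates 1 and 2, were also those with the larger totals. With the log2 total as a covariate the difference was 2.48 (edgeR adjusted p = 0.0061). The covariate has 1 slope over all 16 libraries, so the split within this group alone was not tested.

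At 5 of the 64 loci a group held 3 counts or fewer, and their fitted values depend on the prior count of the fit. With the group at 3 counts, 4 of these loci had differences from 3.90 to 5.05 and the last, Sevir.8G038800, had -4.09. It had 20 counts in the ME034V libraries at anthesis and 15 at 50% SH, against 47 in the A.10 libraries at anthesis and 0 at 50% SH.

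**Figure D3:**
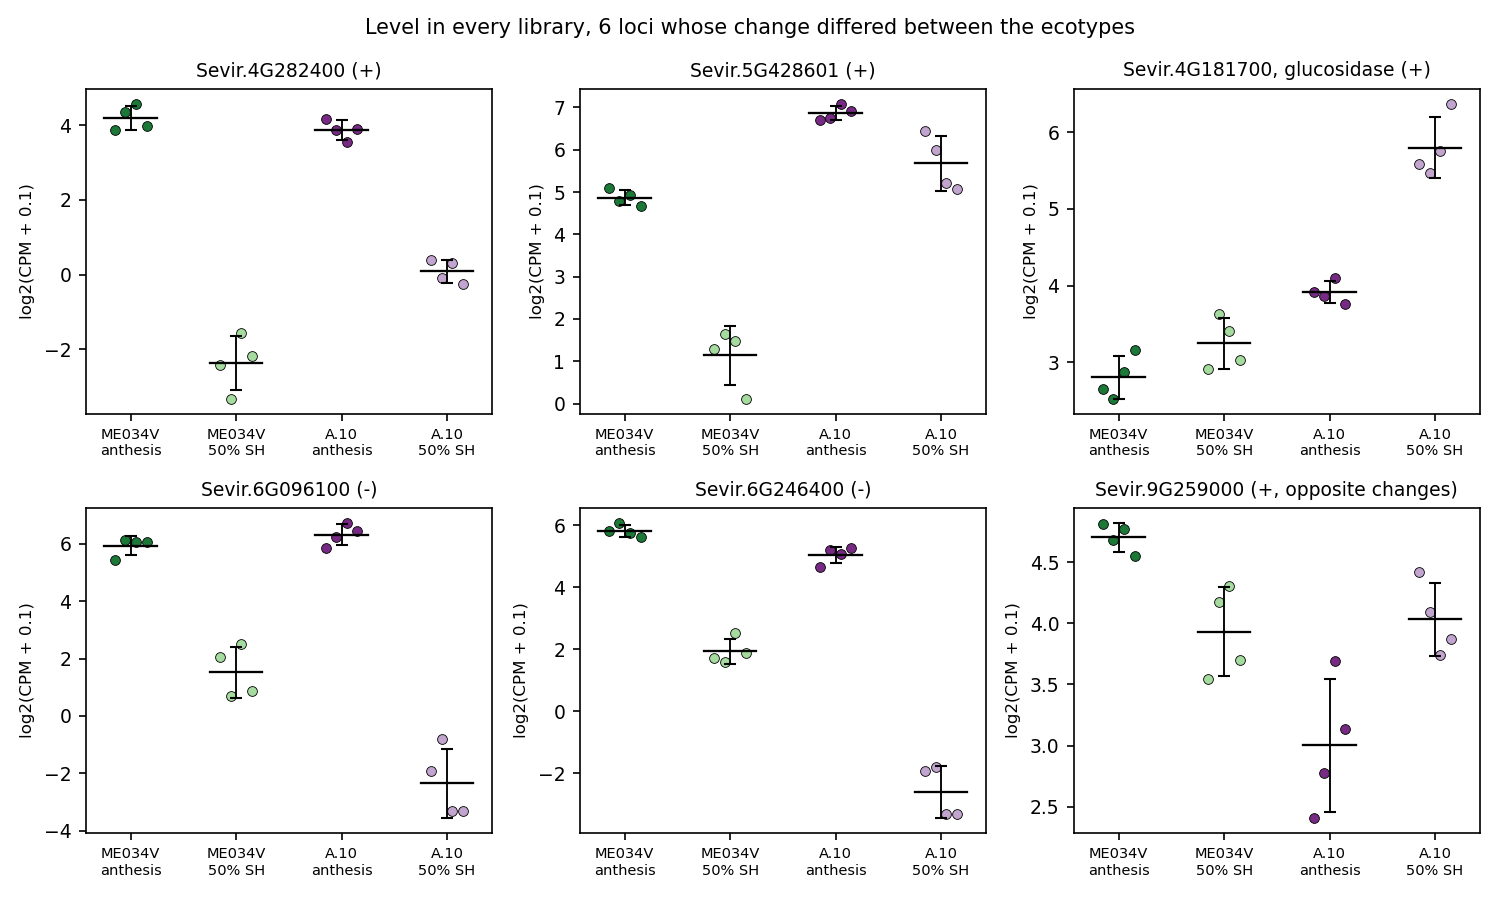
Level in each library as log2(CPM + 0.1) for 6 loci whose change differed between the ecotypes, with points for the 4 replicates of each group and black bars for the mean ± SD. Sevir.6G096100, Sevir.6G246400 and Sevir.4G282400 have their widest gap between ecotypes at 50% SH, and Sevir.9G259000 has its widest gap at anthesis.

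The 5 loci that rose in ME034V and fell in A.10 were chosen for this pattern after their values were seen. Sevir.9G259000 (chromosome 9, 20846544 to 20849118) had 28, 25.5, 27.2 and 23.3 CPM in ME034V at anthesis and 11.6, 17.9, 19.7 and 12.9 CPM at 50% SH, against 5.21, 6.77, 12.8 and 8.67 CPM in A.10 at anthesis and 21.3, 17, 13.3 and 14.5 CPM at 50% SH. The stages did not overlap within either ecotype, the ecotypes overlapped at 50% SH, and ME034V was the higher in every library at anthesis. The changes were 0.74 (SE 0.20) and -0.96 (SE 0.23), and the difference was 1.71 (SE 0.30, edgeR adjusted p = 0.017), or 1.55 without A.10 50% SH replicate 1 (edgeR adjusted p = 0.058).

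Sevir.6G057600 (chromosome 6, 5004723 to 5008131) had 16.4, 17.6, 21.3 and 22.2 CPM in ME034V at anthesis and 15.4, 15.4, 14.5 and 11.2 CPM at 50% SH. In A.10 the values were 17.6, 14.2, 14.3 and 15 CPM at anthesis and 29.2, 25.5, 23.8 and 19.8 CPM at 50% SH. The ecotypes were separate at 50% SH, with A.10 higher, and overlapped at anthesis, and the difference was 1.17 (SE 0.20, edgeR adjusted p = 0.013). At Sevir.3G251600 (chromosome 3, 20059202 to 20061928) the group means were 24.7 CPM in ME034V at anthesis and 15.7 CPM at 50% SH, against 31.4 and 40 CPM in A.10, a difference of 0.99 (SE 0.16, edgeR adjusted p = 0.012). At Sevir.7G248700 (chromosome 7, 29082778 to 29101919) they were 59 and 40.8 CPM in ME034V, against 15.2 and 18.9 CPM in A.10, and the difference was 0.85 (SE 0.13, edgeR adjusted p = 0.0084). This locus was higher in all ME034V than in all A.10 libraries at both stages. Sevir.8G171900 (chromosome 8, 30449033 to 30453065) was the lowest of the 5, with 4, 11, 5 and 16 counts in the ME034V libraries at anthesis and 2, 1, 3 and 4 counts at 50% SH. Its difference was 2.71 (SE 0.55, edgeR adjusted p = 0.042), and it passed in 4 of the 16 fits that left out 1 library. With all 32 libraries in 1 fit Sevir.6G057600 still passed (edgeR adjusted p = 0.038), and Sevir.9G259000 (0.11), Sevir.3G251600 (0.2), Sevir.7G248700 (0.13) and Sevir.8G171900 (0.13) did not.

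The loci that passed were spread over all 9 chromosomes, with 4 (chromosome 2) to 10 (chromosomes 5 and 9) on each, or from 0.132% of the loci tested on chromosome 2 to 0.59% on chromosome 8. In 1 case 2 of them lay within 100 kb of each other. These were Sevir.5G409901 and Sevir.5G410100, 4582 bp apart, whose differences had opposite signs, 1.83 and -0.68. The 64 loci had a median of 20.2 CPM over the 16 libraries, against 15.7 CPM for all loci tested, and a median locus length, introns included, of 2955 bp against 3466 bp. Reads were counted without strand, so a locus and an antisense partner cannot be told apart, and reads of near-identical copies were kept only where they mapped to 1 place.

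The later stages, from libraries that took no part in the comparison, gave a further readout of the same loci, chosen after the data were seen. Of the 37 negative loci 34 were tested in the 16 later libraries. ME034V and A.10 differed at 18 of these at 8 days after anthesis (DAA) and at 22 at 16 DAA, or 52.9% and 64.7%, against 18.9% and 24.9% of all 23601 loci tested there (edgeR, adjusted p under 0.05). ME034V was the higher at 14 of the 18 and at 20 of the 22. Of the 27 positive loci 25 were tested, and the ecotypes differed at 15 at 8 DAA and at 15 at 16 DAA, with ME034V higher at 12 and 13. The positive and the negative loci thus leaned the same way. The share with ME034V higher among all loci that differed is not given here, so the direction cannot be read as particular to either set. As most of the 64 loci had a gap between the ecotypes at an earlier stage, these shares are given as a description.

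Sevir.6G246400, for instance, averaged 37 ± 8.73 CPM in ME034V at 8 DAA and 20.2 ± 3.93 CPM at 16 DAA, against 4.17 ± 3.67 and 1.02 ± 0.468 CPM in A.10 (SD, n = 4 each). The levels were thus lower in every A.10 library than in every ME034V library at each of the 4 stages. Among the 37 negative loci, 24 had their highest group mean of all 8 groups at anthesis, 5 at 50% SH and 8 at a later stage, against 16%, 32.5% and 51.5% of all loci. Of the 27 positive loci, 3, 9 and 15 had their highest mean at these stages. The 8 groups include the 4 groups of the comparison. Of the negative loci 25 had passed as rising to anthesis in both ecotypes and 11 in A.10 only. The stage of the highest mean thus follows in part from how the loci were chosen.

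Loci with large mean rises over both ecotypes leaned to the negative side in the main fit. For mean rises above 4 on the log2 scale this direction depended on how low counts were handled. At 522 loci the mean of the changes of both ecotypes was above 4 on the log2 scale. Together these loci held 10750, 13490, 14330 and 10070 CPM in the ME034V libraries at anthesis and 275.6, 175.2, 361.3 and 192.5 CPM at 50% SH. In A.10 they held 7211, 8993, 7685 and 9492 CPM at anthesis and 85.72, 102.3, 83.72 and 73.78 CPM at 50% SH. All ME034V libraries lay above all A.10 libraries at both stages, by more at 50% SH. The difference was negative at 347 of the 522 loci (66.5%, against 53% of all loci tested), with a median of -0.77. It passed the test at 10 (1.92%, against 0.272% of all loci tested), of which 7 were negative. Few counts stood behind single loci at 50% SH: only 55 of the 522 had 10 or more counts in every group, and over these the median difference was -0.28. With limma on log2 CPM with a prior count of 2, which draws low levels together, the median over the 522 loci turned to 0.14. The lean was not particular to the 522 loci. At the 445 loci with a mean change of 2 to 4 the difference was negative at 68.8%, with a median of -0.63, and 4.27% passed. Over the 238 of them with 10 or more counts in every group, 68.5% were negative and the median was -0.44. Falling loci leaned the other way. At the 520 loci with a mean change of -2 to -1, 29.4% were negative and the median was 0.27.

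Of the genes of sugar transport and metabolism, 1 passed the test of the difference. The list is that of the study and holds 177 genes in 17 families. Of these 167 were tested, and the 10 others had at most 10 counts in any group of 4 libraries. In ME034V 64 of the 167 rose and 17 fell, where 15.1% and 12.1% of all loci tested did, and in A.10 63 rose and 21 fell, where 17.8% and 13.9% did. Of these 53 rose in both, 14 fell in both and none passed in opposite directions. The difference passed at 1 of 167 (0.599%, against 0.272% of all loci tested), and 19 had an unadjusted p under 0.05 (against 8.31% of all loci tested). The median difference was -0.01, and the 95% interval lay within 1 log2 unit of 0 for 121 of the 167 (72.5%, against 68.6% of all loci tested).

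**Figure D4:**
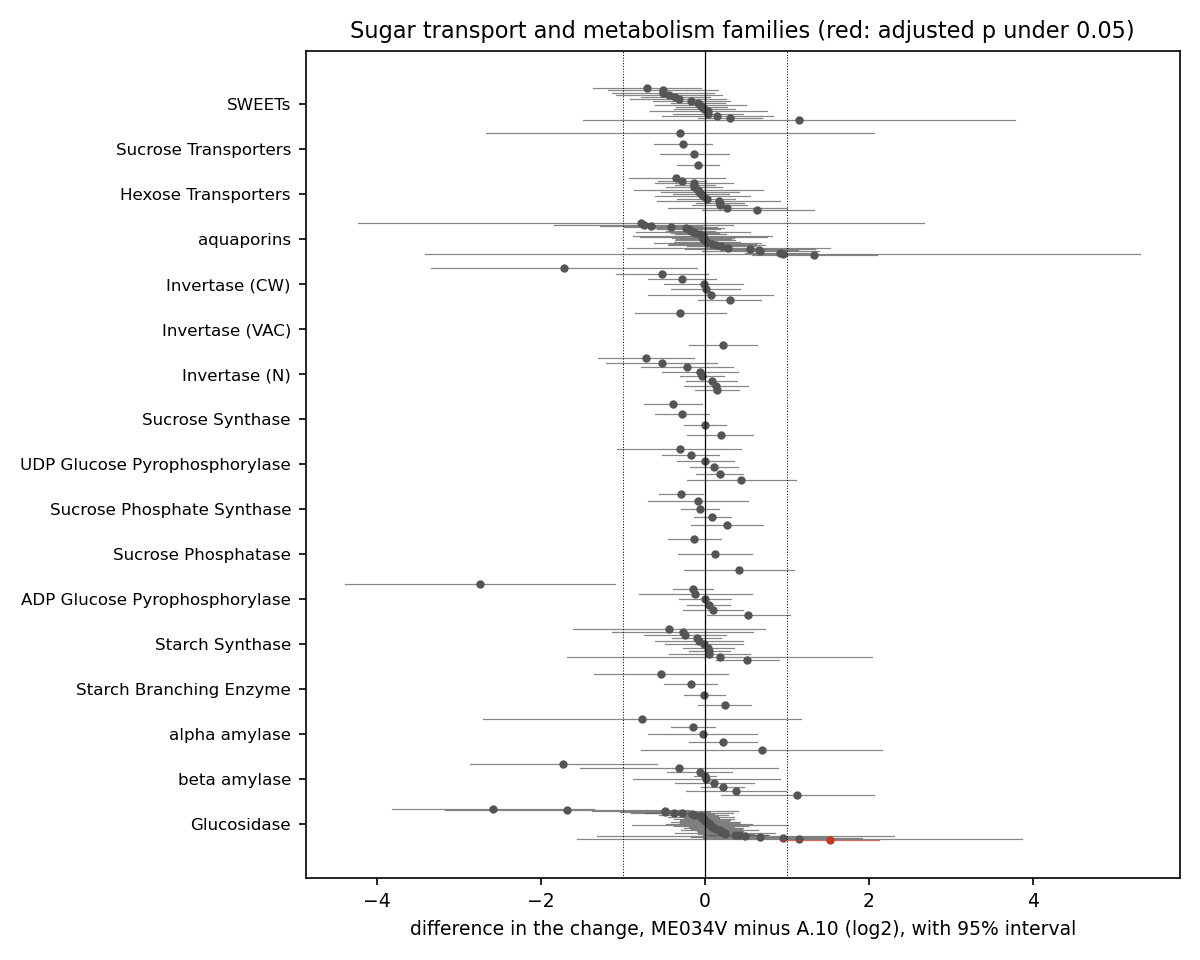
Difference in the change (ME034V minus A.10, log2, points) with its 95% interval (lines) for the 167 genes tested in 17 families of sugar transport and metabolism. Only the glucosidase Sevir.4G181700, in red, passed the test, and dotted lines mark a difference of 1 log2 unit.

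The gene that passed is Sevir.4G181700, listed by the study as a glucosidase, an enzyme that releases glucose from larger molecules. It had 6.21, 5.66, 7.22 and 8.88 CPM in ME034V at anthesis and 7.41, 12.3, 10.5 and 8.1 CPM at 50% SH. A.10 heads had 15, 14.4, 17.1 and 13.5 CPM at anthesis and 47.9, 44.3, 53.9 and 82.5 CPM at 50% SH. The stages overlapped in ME034V and were separate in A.10, and A.10 was the higher in every library at both stages. Its change of -0.40 (SE 0.21) in ME034V did not pass, it fell by 1.92 (SE 0.19) in A.10, and the difference was 1.52 (95% interval 0.91 to 2.12, edgeR adjusted p = 0.029). It passed in 9 of the 16 fits that left out 1 library, with adjusted p-values from 0.02 to 0.089, and not without both libraries that stood apart on the third component (1.23, edgeR adjusted p = 0.097) or with all 32 libraries in 1 fit (1.51, edgeR adjusted p = 0.079).

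The other glucosidases included Sevir.9G090200, with the largest difference of the family. It had 71.6, 104, 47.1 and 57.9 CPM in ME034V at anthesis and 10.5, 10.6, 24.3 and 10.7 CPM at 50% SH, against 37.8, 56.4, 32.2 and 42.9 CPM in A.10 at anthesis and 1.05, 2.98, 0 and 0.371 CPM at 50% SH. The ecotypes overlapped at anthesis and were separate at 50% SH. The gene rose in both, and the difference of -2.59 (95% interval -3.82 to -1.35) missed the threshold with an edgeR adjusted p of 0.076, and passed with DESeq2 (adjusted p = 0.038). Sevir.2G265100, the glucosidase with the highest mean CPM, had a difference of -0.14 (95% interval -0.56 to 0.28). In this family 9 of 34 genes rose and 11 fell in ME034V (against 15.1% and 12.1% of all loci tested), and 10 rose and 12 fell in A.10 (against 17.8% and 13.9%).

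Among the SWEETs 10 of 16 genes tested rose and 1 fell in ME034V, 8 rose and none fell in A.10, and 7 rose in both, where 15.1% of all loci tested rose in ME034V and 17.8% in A.10. None passed the test of the difference, and 11 of the 16 had a negative value, against 53% of all loci tested. *SvSWEET4c* (Sevir.1G134200, chromosome 1, 13250661 to 13255321), an orthologue of the maize gene needed for sugar import into the grain, had 107, 130, 154 and 101 CPM in ME034V at anthesis and 39.6, 60.3, 65.2 and 63.2 CPM at 50% SH. In A.10 it had 106, 123, 126 and 122 CPM at anthesis and 45, 42.4, 45.5 and 40 CPM at 50% SH. The stages were separate within each ecotype, and the ecotypes overlapped at both stages. The rise was 1.11 (SE 0.14) in ME034V and 1.47 (SE 0.14) in A.10, and the difference was -0.36 (95% interval -0.78 to 0.06, edgeR adjusted p = 0.71).

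*SvSWEET4a* (Sevir.1G134500, chromosome 1, 13453004 to 13455752), its close paralogue, had 86.8, 56, 76.2 and 61.1 CPM in ME034V at anthesis and 38.5, 47, 56 and 54.1 CPM at 50% SH, against 74, 79.2, 91 and 87.4 CPM in A.10 at anthesis and 76.5, 66.4, 75.3 and 68.8 CPM at 50% SH. Stages touched at 56 CPM in ME034V and overlapped in A.10, and A.10 was the higher in every library at 50% SH. It rose in ME034V by 0.51 (SE 0.13), with 0.21 (SE 0.13) in A.10, which did not pass, but the difference of 0.30 (95% interval -0.08 to 0.69) did not pass either (edgeR adjusted p = 0.76). As the SvSWEET4 genes are very alike in sequence, reads that fit both were not counted and their levels are uncertain to that extent.

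*SvSWEET5* (Sevir.3G127400), of the same clade as the SvSWEET4 genes, had 107, 117, 136 and 91.1 CPM in ME034V at anthesis and 4.97, 7.06, 5.19 and 5.89 CPM at 50% SH. The A.10 libraries had 46.2, 57.2, 47.9 and 59.6 CPM at anthesis and 2.35, 2.79, 0.679 and 0.927 CPM at 50% SH. Each ecotype had separate stages, and ME034V was the higher in every library at both stages. The rises, 4.29 (SE 0.19) in ME034V and 4.73 (SE 0.23) in A.10, differed by -0.44 (95% interval -1.09 to 0.21). The gap between the ecotypes was thus present at both stages with no detectable difference in the change.

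*SvSWEET15*, *SvSWEET13a* and *SvSWEET13b*, of the clade that transports sucrose, rose in both ecotypes. *SvSWEET15* (Sevir.1G174400) had 255, 276, 365 and 365 CPM in ME034V at anthesis and 58.1, 93.5, 76.9 and 55 CPM at 50% SH, against 240, 203, 429 and 305 CPM in A.10 at anthesis and 59.1, 53.2, 40.3 and 31 CPM at 50% SH, a difference of -0.51 (95% interval -1.18 to 0.16). *SvSWEET13b* (Sevir.3G332800) gave -0.51 (95% interval -1.14 to 0.11) and its neighbour *SvSWEET13a* (Sevir.3G333000) gave -0.32 (95% interval -0.91 to 0.26). For all 3 the ecotypes overlapped at anthesis and at 50% SH. *SvSWEET1a* (Sevir.5G408600), with the highest mean CPM of the SWEETs, had a difference of -0.08 (95% interval -0.41 to 0.24). The largest value of the family stood at *SvSWEET14a* (Sevir.8G137700), with 1.15 (95% interval -1.49 to 3.79), where no library exceeded 1.65 CPM.

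**Figure D5:**
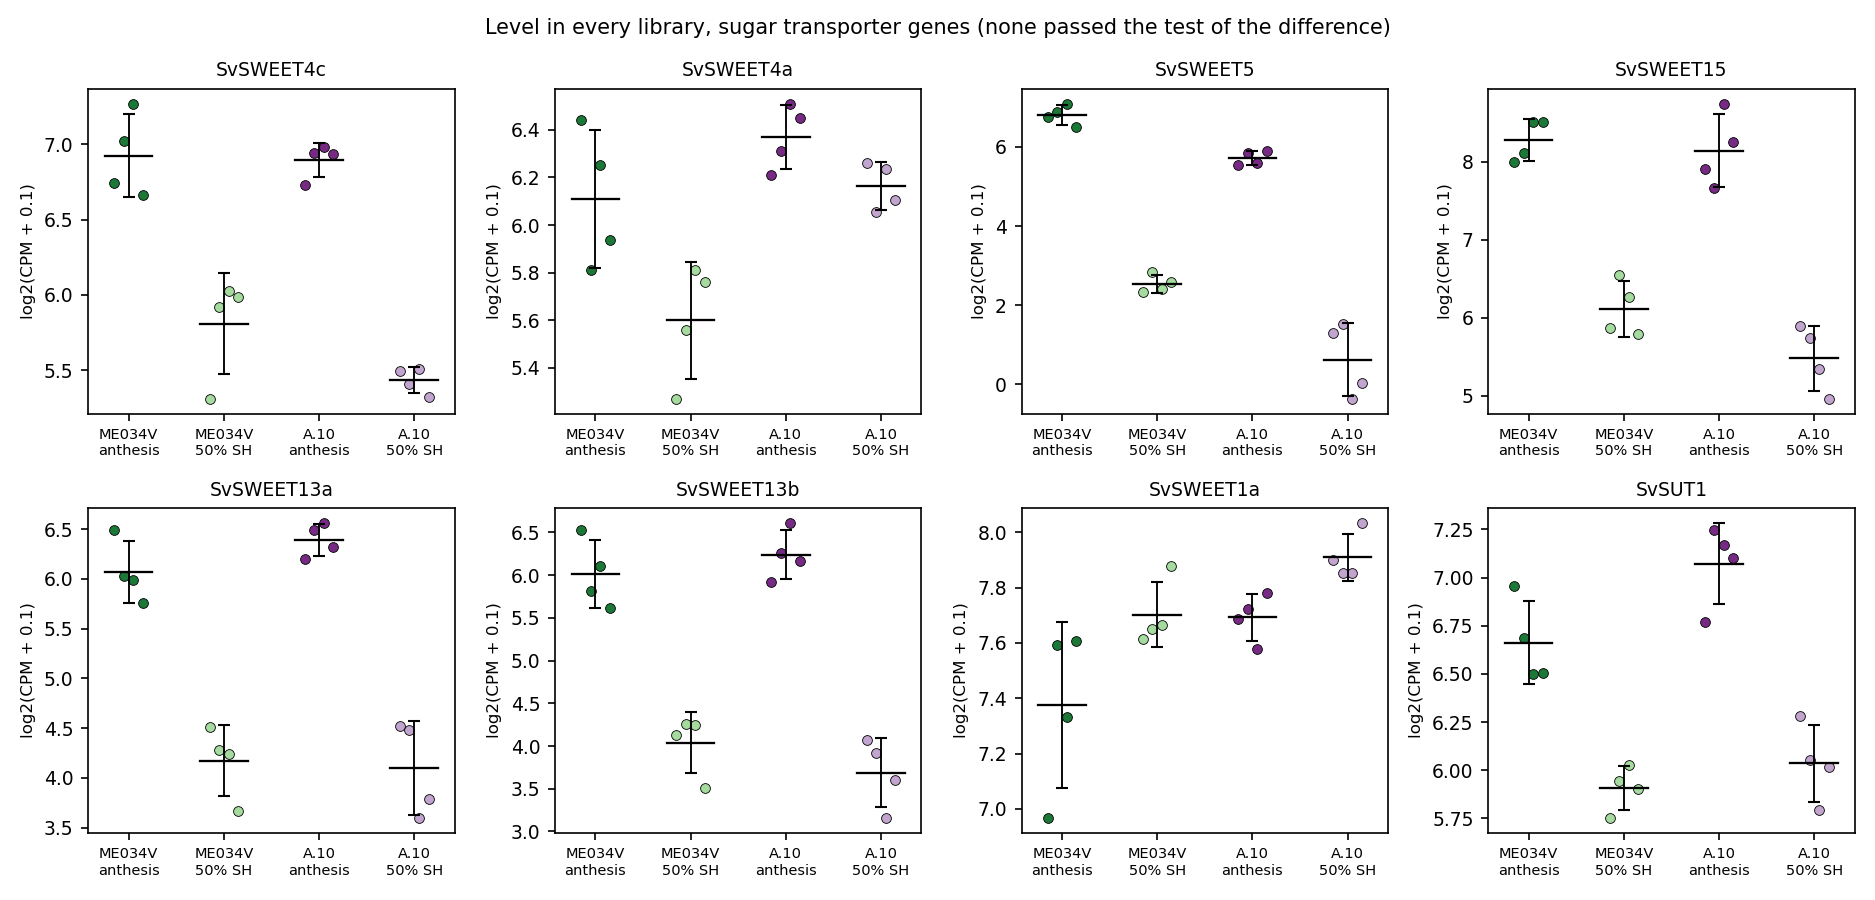
Level in each library as log2(CPM + 0.1) for 7 SWEET genes and *SvSUT1*, with points for the 4 replicates of each group and black bars for the mean ± SD. *SvSWEET5* is higher in ME034V at both stages, and none of the 8 genes passed the test of the difference in the change.

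Sucrose transporters gave small negative values. *SvSUT1* (Sevir.9G528600), a plasma membrane sucrose carrier, had 124, 103, 90.5 and 90.6 CPM in ME034V at anthesis and 53.8, 61.5, 65.2 and 59.8 CPM at 50% SH, against 109, 152, 144 and 137 CPM in A.10 at anthesis and 77.6, 66.2, 55.4 and 64.7 CPM at 50% SH. It rose by 0.76 (SE 0.12) in ME034V and by 1.03 (SE 0.12) in A.10, with a difference of -0.27 (95% interval -0.62 to 0.09). *SvSUT3* (Sevir.9G260400) rose in both ecotypes to at most 8.74 CPM, and since it had at most 1 count in a library at 50% SH its difference of -0.30 had a 95% interval of -2.67 to 2.06. The 15 hexose transporters tested ran from -0.35 to 0.64. The highest value was that of Sevir.2G379900 (95% interval -0.04 to 1.33), and Sevir.1G121800, with the highest mean CPM, gave -0.13 (95% interval -0.37 to 0.12).

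Aquaporins, the channels for water and small solutes, included 4 of 27 genes with an unadjusted p under 0.05 (against 8.31% of all loci tested) and none that passed. *SvNIP4;1* (Sevir.5G074800) had 24.2, 31.4, 21.1 and 20 CPM in ME034V at anthesis and 16, 22.6, 23.9 and 21.7 CPM at 50% SH. In A.10 the values were 11.1, 11.9, 3.97 and 13.5 CPM at anthesis and 26.5, 19.6, 14.7 and 26.9 CPM at 50% SH. The stages overlapped in ME034V and were separate in A.10, where it fell by 1.14. The difference was 1.33 (95% interval 0.57 to 2.1, edgeR adjusted p = 0.15), and it passed with DESeq2 (adjusted p = 0.039). *SvPIP1;2* (Sevir.1G269400), with the highest mean CPM of the aquaporins, gave -0.12 (95% interval -0.42 to 0.17).

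None of the tested genes of enzymes that split sucrose fell in either ecotype. For the cell wall invertases, which act on sucrose outside the cell, 5 of 7 genes rose in both, where 15.1% of all loci tested rose in ME034V and 17.8% in A.10. Sevir.7G099200, with the highest mean CPM, gave a difference of 0.01 (95% interval -0.41 to 0.43). Sevir.7G099400 had the largest, -1.72 (95% interval -3.34 to -0.10, edgeR adjusted p = 0.55), with 14.2, 26.6, 8.74 and 17.9 CPM in ME034V at anthesis and 2.27, 0.869, 4.95 and 2.45 CPM at 50% SH, against 6.51, 10.7, 5.82 and 7 CPM in A.10 at anthesis and 0.405, 0.372, 0.453 and 0 CPM at 50% SH. Its 50% SH libraries were separate by ecotype. Both genes listed as vacuolar invertases rose in both ecotypes, and Sevir.1G004700, the higher of them, gave -0.30 (95% interval -0.86 to 0.26). From protein modelling the paper proposes that Sevir.1G004700 probably encodes an enzyme of fructan synthesis. Of the 8 neutral invertases 3 rose in ME034V and 4 in A.10. Sevir.7G096700 gave -0.72 (95% interval -1.31 to -0.14, edgeR adjusted p = 0.42) and Sevir.1G193400 gave -0.04 (95% interval -0.31 to 0.23). Of the 4 sucrose synthases, which make UDP-glucose from sucrose, 2 rose in ME034V and 3 in A.10. The differences were -0.39 (95% interval -0.74 to -0.04, edgeR adjusted p = 0.52) at Sevir.9G414900 and -0.28 (95% interval -0.61 to 0.05) at Sevir.9G377500, the one with the highest mean CPM.

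Genes of enzymes that make sucrose did not pass the test of the difference. For sucrose phosphate synthase the 5 genes ran from -0.29 (Sevir.4G210700, 95% interval -0.56 to -0.02, edgeR adjusted p = 0.55) to 0.27, and Sevir.6G120400, with the highest mean CPM, gave -0.06. For sucrose phosphatase Sevir.3G060400 gave 0.41 (95% interval -0.26 to 1.09) and Sevir.2G396500 gave -0.13 (95% interval -0.45 to 0.19). UDP-glucose pyrophosphorylase, which links UDP-glucose to glucose phosphate, had its largest value at Sevir.1G112300, 0.44 (95% interval -0.22 to 1.11), a gene that rose in both ecotypes. Sevir.2G312500, with the highest mean CPM of that family, gave 0.00 (95% interval -0.34 to 0.35).

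Genes of starch synthesis did not pass either. ADP-glucose pyrophosphorylase makes the glucose donor for starch. Its gene with the highest mean CPM, Sevir.3G134900, rose in both ecotypes and gave 0.05 (95% interval -0.22 to 0.31). Sevir.1G248600 gave -2.75 (95% interval -4.39 to -1.10, edgeR adjusted p = 0.19), but no library had more than 1.3 CPM. Starch synthase Sevir.1G365600 gave 0.51 (95% interval 0.13 to 0.90, edgeR adjusted p = 0.38) and Sevir.2G118600 gave -0.07 (95% interval -0.61 to 0.47). Starch branching enzymes gave -0.54 (95% interval -1.36 to 0.28) at Sevir.1G181900 and -0.01 (95% interval -0.26 to 0.24) at Sevir.7G096400.

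Amylases cut starch chains. Sevir.9G229200 had both the largest difference and the highest mean CPM of the beta amylases. It had 112, 141, 192 and 115 CPM in ME034V at anthesis and 3.22, 1.19, 2.12 and 1.35 CPM at 50% SH. Levels in A.10 were 93.8, 109, 88.5 and 102 CPM at anthesis and 0.486, 0.652, 0 and 0.185 CPM at 50% SH. All ME034V libraries were above all A.10 libraries at both stages, by more at 50% SH. It rose by 6.09 (SE 0.25) in ME034V and by 7.82 (SE 0.32) in A.10, and the difference of -1.73 (95% interval -2.87 to -0.58) did not pass (edgeR adjusted p = 0.27). Of the alpha amylases Sevir.5G298000, with the highest mean CPM, gave 0.22 (95% interval -0.20 to 0.64), and Sevir.3G012600, with at most 1.36 CPM, gave -0.77 (95% interval -2.71 to 1.17).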

How the data were processed

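Seed heads were homogenized frozen, and poly(A) libraries were made with a TruSeq kit that does not mark strand. The authors trimmed reads with Trim Galore, checked them with FastQC 0.11.2, mapped them with Subread 1.6.2 and sorted them with SAMtools 1.2, keeping uniquely mapped reads. The deposited count files hold the raw counts of whole reads per locus that the authors made with featureCounts (1.5.0-p1 per the file headers) on 38334 annotated loci (*S. viridis* v2.1), whose genome is that of A.10. A loss of ME034V reads that is the same at both stages cancels in the change. It does not cancel where the levels of the ecotypes are compared at a stage, the later stages included. The size of such a loss was not tested. The deposited log2 FPKM tables were scaled for each ecotype apart and were not used.

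Counts of the 16 libraries of ME034V and A.10 at anthesis and 50% SH were scaled together by TMM and fitted with edgeR 4.0.16 (quasi-likelihood) in R 4.3.3 with 1 mean per group. Loci had CPM above 1 in at least 3 of the 16 libraries. The difference was the ME034V change minus the A.10 change, the Benjamini-Hochberg method was applied to the p-values of all loci in the test, and a call had an adjusted p under 0.05. SEs are the log2 value over the root of F, and intervals are at 95%. At low levels with a value near 0 such an SE can be too small, as at the beta amylase Sevir.2G435300 (2.86 CPM, SE 0.07). The shares of loci with an interval within 1 log2 unit of 0 include such loci. Group totals ran from a median of 6490330.5 counts (A.10 anthesis) to 8605822.5 (ME034V 50% SH), and 4 pools a group limit the precision. The p-values measure the spread between pools of 4 plants. No replicates held identical counts, and the closest pair differed by a chi-square of 2.495 per locus, against 1 for sampling noise. The fit was tested on simulated data. Later stages were fitted apart on the other 16 libraries, and their CPM were scaled over all 32.

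Named genes were those of the study's families that passed, in each family the member with the largest difference and that with the highest mean CPM, SvSWEET1a, 4a, 4c, 5, 13a, 13b and 15, SvSUT1 and 2 reference genes, and, of other loci, at most 2 per direction averaging 10 CPM or more in a group, separate stages in an ecotype and separate ecotypes at a stage. Members and lists were chosen with earlier results of these data known. The reference table matched 0 of the locus identifiers, so lists by description, marker genes and sequences were not used here. Alternatives were all 32 libraries in 1 fit, DESeq2 1.42.0, its size factors, no filter, CPM above 5 in at least 4 libraries, blocks for the replicate number, thinned counts, limma 3.58.1, glmTreat against a log2 difference of 1, and each library left out. A depth covariate and leaving out both libraries that stood apart were added after the data were seen.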

Additional observations from a re-analysis of the deposited data

Results flagged for a closer look

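Of 204 groups of 4 values examined (totals and the CPM of named genes), 13 held a library far from the other 3, where chance gives about 1 in 20. ME034V anthesis replicate 4 had 21175874 counts. The elongation factor gene Sevir.3G271600 had 91.2 CPM in ME034V anthesis replicate 1 and 131 CPM in A.10 50% SH replicate 4. In ME034V at anthesis, Sevir.2G396500 had 57.2 CPM and Sevir.1G365600 had 22.4 CPM in replicate 3, Sevir.1G248600 had 0.772 CPM and Sevir.8G171900 had 1.41 CPM in replicate 2, and Sevir.6G096100 had 43.3 CPM in replicate 1. In ME034V at 50% SH, Sevir.8G137700 had 0.491 CPM in replicate 4 and Sevir.9G090200 had 24.3 CPM in replicate 3. In A.10, Sevir.1G004700 had 271 CPM in anthesis replicate 3, Sevir.9G260400 had 0.185 CPM in 50% SH replicate 4 and Sevir.3G060400 had 5.83 CPM in 50% SH replicate 1.

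The change to anthesis differed between ME034V and A.10 at 14 of the loci given in the text by the edgeR test of the difference (adjusted p under 0.05). The differences on the log2 scale were 1.52 at Sevir.4G181700, 3.40 at Sevir.4G282400, 2.60 at Sevir.5G428601, -4.06 at Sevir.6G246400 and -4.24 at Sevir.6G096100. At the 5 loci that rose in ME034V and fell in A.10 they were 0.99 at Sevir.3G251600, 1.17 at Sevir.6G057600, 0.85 at Sevir.7G248700, 2.71 at Sevir.8G171900 and 1.71 at Sevir.9G259000. At 4 others they were -2.76 at Sevir.9G555700, 1.83 at Sevir.5G409901, -0.68 at Sevir.5G410100 and -4.09 at Sevir.8G038800, with its empty group at 3 counts.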

How the results depend on the processing

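The number of loci with a difference was 64 (27 positive, 37 negative). It was 31 (12, 19) with all 32 libraries in 1 fit, 180 (64, 116) with DESeq2, 108 with 73 negative without a filter, 46 with 15 positive in thinned counts, 98 with 59 negative with limma, and 2 (0, 2) against a log2 difference of 1, where the changes passed at 1041 loci in ME034V (1001 rose, 40 fell) and 1284 in A.10 (1155 rose, 129 fell). With the log2 library total as a covariate 58 were negative, and 66 without both libraries that stood apart. The cause was not tested, except that the test against 1 has a higher threshold and thinned libraries hold fewer counts. Leaving out 1 library gave 36 to 158 differences (16 to 41 positive, 18 to 117 negative), 5306 to 6904 changes in ME034V (3053 to 3786 rose, 2141 to 3118 fell) and 6325 to 8351 in A.10 (3545 to 4652 rose, 2738 to 3699 fell). Of the 64 loci, 59 also passed with DESeq2, 63 with its size factors, 59 with limma and 24 with all 32 libraries. No named value that passed turned its sign. With all 32 libraries in 1 fit, 6 of the 10 loci that passed and were named by the rule or for their opposite changes no longer did (adjusted p from 0.079 to 0.53), while Sevir.5G428601, Sevir.6G246400, Sevir.6G096100 and Sevir.6G057600 did.

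Replicate numbers name no shared plants or days. Of 24 correlations between the deviations of libraries with the same number, which ran from -0.274 to 0.537, 7 were over 0.1. Of the 16 libraries 8 correlated best with one of their own number, though most of the libraries open to each had another number. Whether the numbers mark pairs was not tested further. As the labels name no pairs, the main fit took none, and fits with a block are given beside it. A replicate block over all groups gave 64 loci (27 positive, 37 negative), 51 of them among the main 64, and one nested within ecotype gave 24 (8 positive, 16 negative), 21 of them among the main 64, with 5545 and 6681 changes in ME034V and A.10.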
